A study of Mus musculus with 11 samples.

Results

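Fyttd1 is the gene of UIF, an adaptor that helps to carry messenger RNA out of the nucleus, and it is described here together with 8 genes of the same export route (Alyref, Nxf1, Nxt1, Ddx39b, Thoc1, Thoc2, Thoc5 and Sarnp). The 9 genes were taken by symbol through their Ensembl identifiers from the 55487 genes of the deposited count table, and all 9 were among the 14521 genes that passed the filter on low counts. Fyttd1 was chosen because its level had separated the Ifnar1 genotypes in these same libraries, so its genotype values are given as a description with no test. The other 8 were chosen by function, with the question whether they share that separation.

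RNA was sequenced from 11 samples of acute myeloid leukaemia (AML) in mice, 6 labelled Ifnar1 +/- and 5 labelled Ifnar1 -/-. The product of Ifnar1 is needed for cells to sense type I interferons, so the comparison sets AML with 1 intact copy of that gene against AML with none. Every sample of both genotypes also carried Flt3-ITD, an internal tandem duplication that activates the cytokine receptor gene Flt3, and NHD13, a transgene that encodes a fusion of NUP98 with HOXD13. Neither genotype is wild type, and the labels give no age, no sex and no statement of how many mice the samples came from, so p-values measure only the spread between these samples.

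In the nucleus, the THO complex travels with the transcribing polymerase and loads the helicase DDX39B onto new transcripts; together with adaptor proteins they form the TREX complex. The adaptors ALYREF and UIF bind DDX39B and then hand the transcript to the receptor pair NXF1 and NXT1, which passes through the nuclear pore. In human cells UIF works alongside ALYREF and is brought to transcripts with the help of the histone chaperone FACT.

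Library totals ran from 25583642 to 38728143 estimated counts. The haematopoietic genes Ptprc and Flt3 had 107 to 654 and 72.9 to 233 CPM (counts relative to the total of each library, adjusted by TMM), while the progenitor gene Kit ranged from 6.77 to 599 CPM. The 4 T and NK cell markers summed to 0.146 to 0.812 CPM in Ifnar1 +/- and 0 to 6.09 CPM in Ifnar1 -/- libraries, with Cd8a and Ncr1 at 0 in 7 of 11 libraries each. A B-lineage score, the mean centred log2 CPM of 8 marker genes such as Ebf1 and Cd79a, was 4.87 to 5.58 in Ifnar1 +/- libraries 3, 4 and 5 and Ifnar1 -/- libraries 3 and 5, and -5.89 to -0.82 in the other 6. The labelled AML thus held much B-lineage transcript in 5 libraries, of both genotypes. Ifnar1 -/- library 2 had the highest level of the eosinophil granule gene Prg2 (47695 CPM, against at most 1166 CPM among Ifnar1 +/- libraries). Ifnar1 +/- library 6 had the highest level of the globin gene Hbb-bs (49495 CPM, against at most 4245 CPM among Ifnar1 -/- libraries). Ifnar1 itself had 39.3 to 84.5 CPM in Ifnar1 +/- and 36.3 to 133 CPM in Ifnar1 -/- AML. These values did not check the labels, because a total per gene can miss a change such as a deleted exon.

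Fyttd1 (ENSMUSG00000022800) spans 32877500 to 32908875 of chromosome 16 in GRCm38, on the plus strand, and its first 267 bases overlap the start of Rubcn on the opposite strand. Promoter sequence bears on a genotype that lacks a cytokine receptor, so the window from 250 bases before to 50 after the RefSeq start of each member (GRCm38.p6) was searched on both strands for sites of interferon signalling and for common promoter motifs. RefSeq gave this window for 8 of the 9 members. The core of the interferon-stimulated response element (GAAANNGAA) occurred in 8.56% and the gamma-activated site (TTCNNNGAA) in 8.30% of the 32851 promoters in the table, and each in 0 of the 8 members. With shares this low, 0 of 8 does not set the members apart from promoters at large. The pattern GCGCNTGCG, of the type bound by NRF1, a regulator of housekeeping and respiratory genes, occurred in 6.31% of promoters and in those of Fyttd1, Nxt1, Ddx39b and Alyref. An ETS-type motif (CCGGAAGT) occurred in 3.89% of promoters and in those of Alyref, Ddx39b and Thoc5. Matches were counted for each motif on its own, whether or not they overlapped another. The 4 member promoters with the NRF1-type pattern are shown beside that of Ifit1, an interferon-induced gene, to set windows without the interferon element against one that has it. All read 5′ to 3′ in the direction of the gene, which is the minus strand for Alyref and the plus strand for the other 4. Capitals mark the NRF1-type pattern in the members and the interferon element in Ifit1.
Fyttd1, chr16:32877534-32877833: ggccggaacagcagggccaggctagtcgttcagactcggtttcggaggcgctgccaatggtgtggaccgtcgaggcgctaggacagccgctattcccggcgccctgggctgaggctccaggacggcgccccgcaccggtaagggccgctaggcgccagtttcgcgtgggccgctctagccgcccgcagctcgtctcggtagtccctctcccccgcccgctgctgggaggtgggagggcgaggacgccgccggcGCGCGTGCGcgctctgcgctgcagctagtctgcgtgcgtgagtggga
Nxt1, chr2:148672365-148672664: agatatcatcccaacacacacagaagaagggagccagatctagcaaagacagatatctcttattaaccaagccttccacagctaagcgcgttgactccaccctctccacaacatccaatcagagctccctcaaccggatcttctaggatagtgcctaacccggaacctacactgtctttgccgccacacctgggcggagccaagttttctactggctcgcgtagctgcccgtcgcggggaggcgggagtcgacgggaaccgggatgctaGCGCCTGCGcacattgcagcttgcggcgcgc
Ddx39b, chr17:35241496-35241795: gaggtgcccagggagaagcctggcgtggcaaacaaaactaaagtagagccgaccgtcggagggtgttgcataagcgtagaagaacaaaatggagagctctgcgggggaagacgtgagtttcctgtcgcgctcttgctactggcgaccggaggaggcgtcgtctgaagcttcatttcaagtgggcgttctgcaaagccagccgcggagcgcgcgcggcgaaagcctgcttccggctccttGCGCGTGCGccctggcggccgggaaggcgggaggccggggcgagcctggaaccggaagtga
Alyref, chr11:120598316-120598615: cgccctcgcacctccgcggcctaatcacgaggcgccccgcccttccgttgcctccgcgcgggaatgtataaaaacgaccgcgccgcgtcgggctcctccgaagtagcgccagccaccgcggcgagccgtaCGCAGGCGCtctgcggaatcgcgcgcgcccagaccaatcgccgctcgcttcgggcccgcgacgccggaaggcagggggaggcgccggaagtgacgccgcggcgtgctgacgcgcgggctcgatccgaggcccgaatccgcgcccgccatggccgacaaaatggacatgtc
Ifit1, chr19:34640639-34640938: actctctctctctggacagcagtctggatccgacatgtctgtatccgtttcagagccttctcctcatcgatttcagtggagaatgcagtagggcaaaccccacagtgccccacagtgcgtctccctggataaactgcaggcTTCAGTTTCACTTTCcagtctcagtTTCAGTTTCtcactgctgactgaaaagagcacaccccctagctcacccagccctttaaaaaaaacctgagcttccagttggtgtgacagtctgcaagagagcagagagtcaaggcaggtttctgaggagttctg
The Ifit1 window held 3 matches to the element, the first 2 of them overlapping, and each member window held 1 NRF1-type match. In Fyttd1 it begins 3 bases after the RefSeq start. That start lies downstream of the annotated gene start at 32877500, from which the overlap with Rubcn is measured. A match is a run of letters and not a measured site, and no match says only that these letters are not in the window.

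Fyttd1 transcript was lower in every Ifnar1 -/- library than in any Ifnar1 +/- library. Ifnar1 +/- libraries 1 to 6 had 52.7, 53.8, 49.7, 52.2, 53.0 and 64.2 CPM, and Ifnar1 -/- libraries 1 to 5 had 42.9, 31.8, 39.4, 37.1 and 37.2 CPM. The groups did not overlap, with Ifnar1 +/- library 6 the highest and Ifnar1 -/- library 2 the lowest of all. These are the libraries with the highest levels of Hbb-bs and Prg2, in that order. The means were 54.3 ± 5.06 CPM (SD, n = 6) and 37.7 ± 4.06 CPM (SD, n = 5), so the Ifnar1 -/- mean was 30.6% below the other, a log2 fold change of -0.53 (SE 0.14). Because these values chose the gene, nothing is read from the separation itself. Among all tested genes, every Ifnar1 -/- library lay below every Ifnar1 +/- library for 0.0758% and above for 0.0482%. In a bulk sample, fewer cells that express a gene and less RNA per cell cannot be told apart.

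The values of Fyttd1 rested on 616 to 2196 estimated counts per library. Counting error alone was 4.03% at the lowest of them. Its reads in the annotated overlap cannot be told apart from those of Rubcn, since the counting is not stated to use strand. Rubcn, an autophagy regulator gene, had 6.86 to 32.2 CPM.

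**Figure D1:**
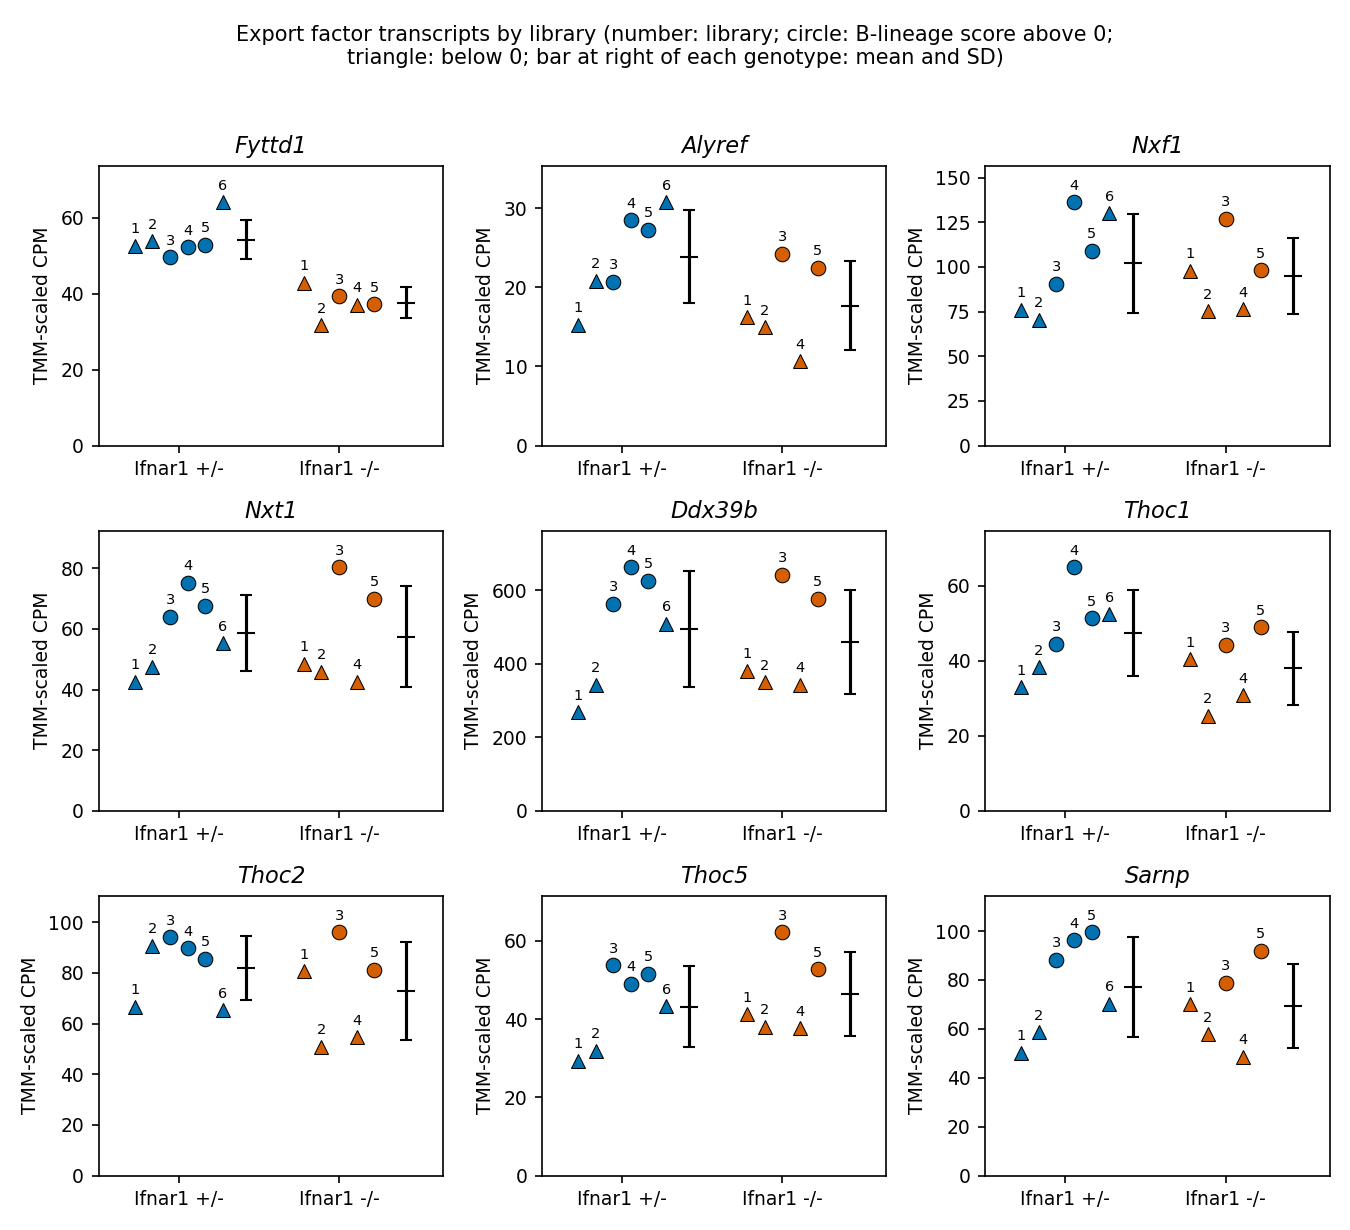
TMM-scaled CPM (vertical axis, from 0) of the 9 transcripts in each library, by genotype, with the library number above each point. Circles are libraries with a B-lineage score above 0, triangles those below 0, and the bar right of each genotype is its mean and SD. Fyttd1 is split by genotype (31.8 to 42.9 against 49.7 to 64.2 CPM), whereas in Nxt1, Ddx39b, Thoc5 and Sarnp all circles lie above all triangles.

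Alyref, the gene of the adaptor that works in parallel with UIF, had a fold change of the same sign as Fyttd1 with a wider spread, and did not pass. Ifnar1 +/- libraries 1 to 6 had 15.3, 20.8, 20.7, 28.4, 27.2 and 30.8 CPM, and Ifnar1 -/- libraries 1 to 5 had 16.2, 15.0, 24.2, 10.7 and 22.5 CPM. The groups overlapped, Ifnar1 +/- library 1 lying among the low Ifnar1 -/- libraries. The log2 fold change was -0.43 (SE 0.26), and the adjusted p in edgeR's quasi-likelihood test was 0.9998, as for each of the other 7 members tested. Sarnp, the gene of the TREX adaptor also called CIP29, had 50.2 to 99.6 CPM in Ifnar1 +/- and 48.7 to 92.0 CPM in Ifnar1 -/- AML. Its annotated span is shared in part with Dnajc14 and Ormdl2, so part of its reads may be theirs.

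The helicase gene Ddx39b was the most abundant member, and its genotypes overlapped almost fully. Ifnar1 +/- libraries 1 to 6 had 267, 342, 562, 663, 626 and 508 CPM, and Ifnar1 -/- libraries 1 to 5 had 380.2, 349, 642, 342 and 577 CPM. High and low libraries occurred in both genotypes, and the log2 fold change was -0.11 (SE 0.28). Ddx39b and its close paralog Ddx39a can share reads, which makes single values of either uncertain.

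The genes of the export receptor had fold changes close to 0. Nxf1, whose protein carries the transcript through the pore, averaged 102 ± 27.6 CPM over Ifnar1 +/- libraries (SD, n = 6) and 94.9 ± 21.2 CPM over Ifnar1 -/- libraries (SD, n = 5). For its partner Nxt1, Ifnar1 +/- libraries 1 to 6 had 42.5, 47.6, 64.1, 75.2, 67.7 and 55.3 CPM, and Ifnar1 -/- libraries 1 to 5 had 48.5, 45.8, 80.5, 42.6 and 70.01 CPM. The Nxt1 values of one genotype lay within the range of the other but for a single library at each end. The log2 fold changes were -0.11 (SE 0.23) for Nxf1 and -0.03 (SE 0.23) for Nxt1.

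The 3 THO subunit genes had fold changes on both sides of 0. Thoc1, the gene of a core subunit, averaged 47.3 ± 11.4 CPM over Ifnar1 +/- libraries (SD, n = 6) and 37.9 ± 9.70 CPM over Ifnar1 -/- libraries (SD, n = 5), with a log2 fold change of -0.32 (SE 0.23). Without Ifnar1 +/- library 4 it was -0.21, and without Ifnar1 -/- library 2 it was -0.20. Thoc1 shares 2424 bases with Usp14 on the opposite strand. Thoc2, the gene of the scaffold subunit, had 82.0 ± 12.6 and 72.7 ± 19.3 CPM (-0.17, SE 0.20). Its value was -0.064, -0.30 and -0.087 without Ifnar1 -/- libraries 2, 3 and 4 in turn. Thoc5, the gene of a subunit that in human cells contacts NXF1, was the member with a fold change above 0 (0.10, SE 0.22), at 43.1 ± 10.4 and 46.4 ± 10.8 CPM. Ifnar1 +/- libraries 1 to 6 had 29.3, 31.9, 53.7, 49.0, 51.6 and 43.3 CPM of Thoc5, and Ifnar1 -/- libraries 1 to 5 had 41.2, 38.0, 62.2, 37.6 and 52.7 CPM. The genotypes overlapped for all 3.

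None of the 8 export factors chosen by function shared the separation of Fyttd1. The shares of separated genes over all tested genes (0.0758% lower and 0.0482% higher) leave little room for any among 8. In edgeR's test 0 of the 8 passed after adjustment over all genes, where 0% of all 14521 genes did, and 0 had an unadjusted p under 0.05, against a background of 1.99% in both directions and 0.771% for lower genes. DESeq2, which called 0.0213% of genes, and limma voom, which called 0%, also called 0 of the 8. Of the 8, 7 had fold changes below 0, with a median of -0.13, where 51.7% of all tested genes were below 0 and the median of all was -0.015. The 95% intervals of all 8 contained 0. These intervals were wide: 7 of the 8 also contained the -0.53 of Fyttd1, so a difference of that size is not excluded for those genes. The interval of Thoc5, from -0.38 to 0.59, did not contain it, and that of Nxt1 reached it at its lower end (-0.53 to 0.47).

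**Figure D2:**
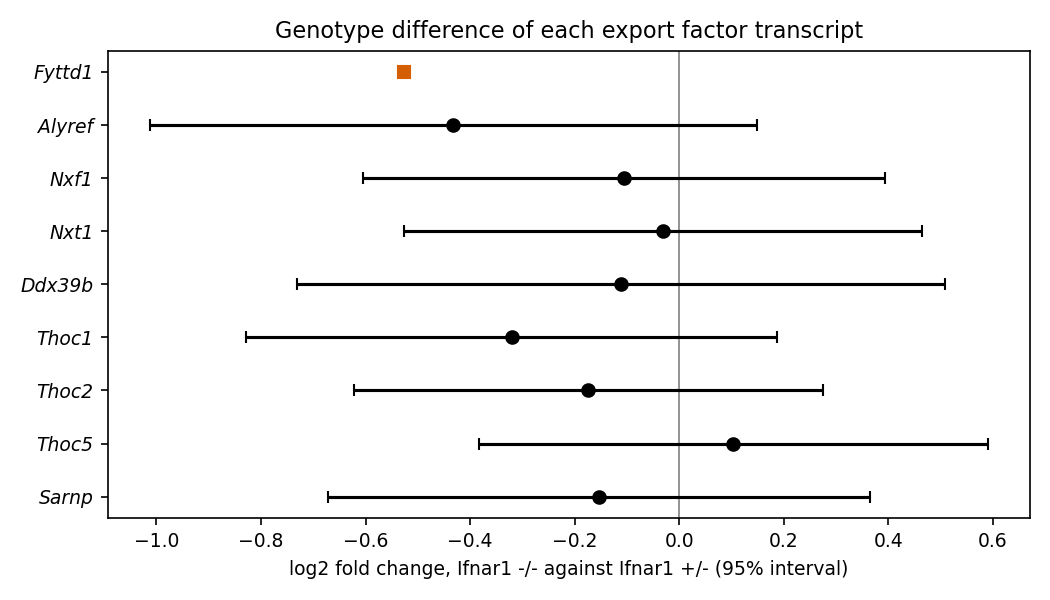
Log2 fold change (horizontal axis, Ifnar1 -/- against Ifnar1 +/-) of the 9 transcripts, with 95% intervals for 8. Fyttd1, the orange square at -0.53, was chosen on this contrast and is drawn without an interval; those of the other 8 cross 0.

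What set Fyttd1 apart from the other members was its small spread among libraries of the same genotype as much as the size of its difference. Its coefficient of variation, the SD over the mean, was 9.32% in Ifnar1 +/- and 10.8% in Ifnar1 -/- AML, a mean of 10.04%. Of the tested genes, 74 (0.510%) had a lower mean. The other 8 members had means of 21.0% to 31.4%, and 12.8% to 31.5% of tested genes lay below them. The median over all tested genes was 45.04%. Alyref had a fold change almost as large as that of Fyttd1, and its SE was wider. This comparison is a description, since a small spread is part of what put Fyttd1 forward.

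**Figure D3:**
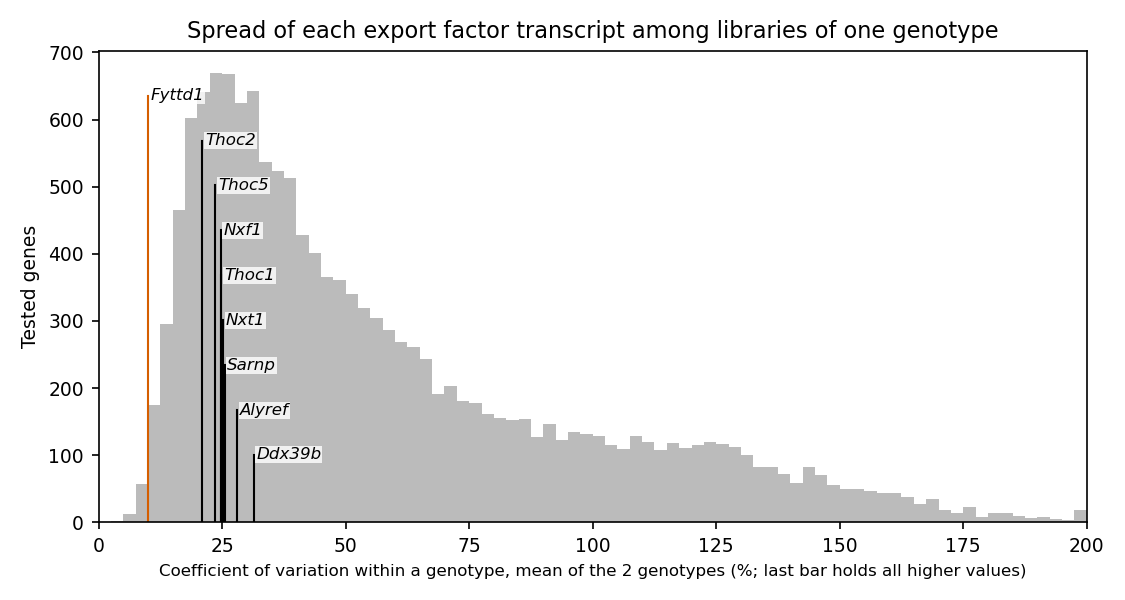
Histogram of the within-genotype coefficient of variation (horizontal axis in %, mean of both genotypes) over the 14521 tested genes, with a vertical line at each member. Fyttd1 sits at 10.04%, left of most genes, and the other 8 lie between 21.0% and 31.4%.

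The levels of 4 of the other 8 export factors split the libraries by whether the B-lineage score was above 0. For Nxt1, Ddx39b, Thoc5 and Sarnp the 5 highest values were those of the 5 libraries with a B-lineage score above 0, as for 12.1% of all tested genes. Ddx39b had 562 to 663 CPM in these libraries and 267 to 508 CPM in the other 6. Sarnp had 78.8 to 99.6 against 48.7 to 70.3 CPM. Alyref, Nxf1, Thoc1 and Thoc2 each had 4 of their 5 highest values in the same libraries. For Alyref the highest value belonged to Ifnar1 +/- library 6, and for Nxf1 and Thoc1 that library was second. Fyttd1 did not show this split. It had 37.2 to 53.0 CPM in the libraries with much B-lineage transcript and 31.8 to 64.2 CPM in the others. With the B-lineage score as a covariate in the edgeR fit, the log2 fold change of Fyttd1 was -0.54, while those of Nxt1 and Ddx39b were 0.088 and 0.042. The part of B-lineage content in these levels was not tested beyond that fit.

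**Figure D4:**
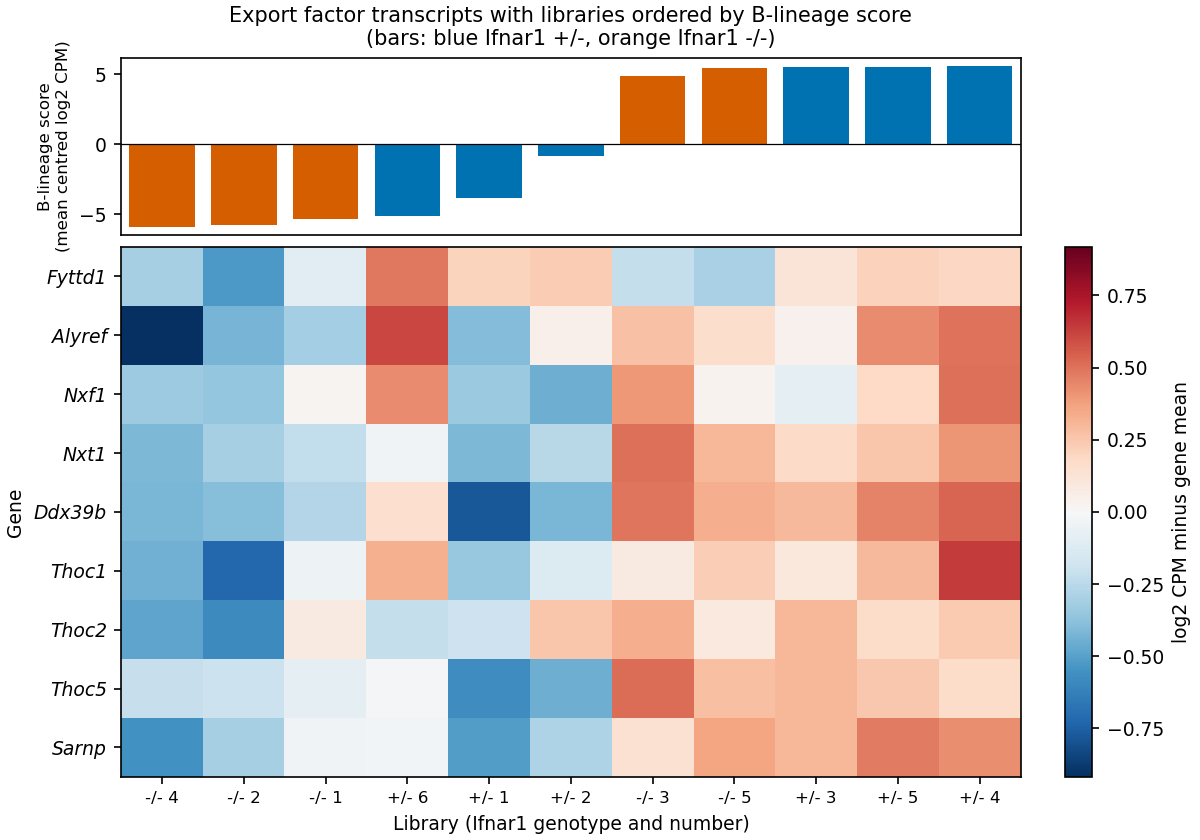
Heat map of log2 CPM minus the gene's mean (colour) for the 9 transcripts in the 11 libraries, ordered from left to right by the B-lineage score drawn as bars above (blue Ifnar1 +/-, orange Ifnar1 -/-). Ddx39b, Nxt1, Thoc5 and Sarnp are red in the 5 libraries on the right, whereas Fyttd1 is blue in every Ifnar1 -/- and red in every Ifnar1 +/- library.

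Per kilobase of annotated exon, Ddx39b had the highest level, with a median of 134 CPM per kb over the 11 libraries. Sarnp (51.7) and Nxt1 (49.6) followed, with ranges that overlapped each other. Nxf1 (22.1) and Thoc5 (15.1) came next and also overlapped. Fyttd1 (7.49), Thoc2 (6.41), Alyref (5.42) and Thoc1 (4.95) were the lowest on this scale, and each overlapped its neighbour in the order. The ranges did not overlap between Nxt1 and Nxf1 or between Thoc5 and Fyttd1. Exon lengths were taken over all annotated transcripts, so members with long alternative exons come out too low.

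Beyond the 9 members, no further gene of the export pathway passed, where 0% of all tested genes did in edgeR. Lists by role named 66 genes, of which 63 could be tested. Nxf3 and Nxf7, testis-type relatives of Nxf1, had at most 0.682 CPM and were not tested, and Zc3h11a was left out because 2 identifiers carry its symbol. Leaving aside Fyttd1, which was chosen on this contrast, 0 of them passed in edgeR or in DESeq2 after adjustment. In edgeR 0 had an unadjusted p under 0.05. Over all genes the shares were 0% in edgeR and 0.0213% in DESeq2 after adjustment, and 1.99% in edgeR without it. Without the 9 members, 42 of 54 genes had fold changes below 0, with a median of -0.17 and a range from -0.50 to 0.52. Over all tested genes 51.7% had fold changes below 0. Genotypes that did not overlap were found in 0 of the 54, where the shares over all genes (0.0758% lower and 0.0482% higher) leave little room for any. In 17 of the 54 all libraries with a B-lineage score above 0 lay above the others, as in 12.1% of all genes.

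The genes of FACT, which helps to bring UIF to transcripts, had fold changes below 0 without passing. The subunit genes Supt16 and Ssrp1 had 106 ± 25.9 against 82.2 ± 32.7 CPM (log2 fold change -0.37, SE 0.28) and 357 ± 112 against 313 ± 123 CPM (-0.19, SE 0.31) in Ifnar1 +/- (n = 6) and Ifnar1 -/- (n = 5) AML. Among further TREX genes, Chtop, an adaptor that binds NXF1, had 74.1 ± 11.5 and 63.3 ± 12.03 CPM, and Poldip3 had 317 ± 63.1 and 293 ± 25.0 CPM. The THO subunit genes Thoc3 and Thoc7 had log2 fold changes of -0.21 (SE 0.23) and -0.17 (SE 0.20). The helicase and adaptor list had 7 of 7 tested genes below 0 (median -0.20), counting Fyttd1, which was chosen on this contrast. The THO list had 5 of 6 below 0 (median -0.17), where 51.7% of all tested genes were. The splicing factors Srsf1 and Srsf3, which also act as NXF1 adaptors, were at -0.35 (SE 0.37) and -0.29 (SE 0.30). Nxt2 and Nxf2, relatives of the receptor genes, were at -0.18 (SE 0.44) and -0.50 (SE 1.03), Nxf2 with at most 1.75 CPM.

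Genes that act at the nuclear pore had fold changes on both sides of 0. Of the 15 pore and release genes tested, 10 were below 0 (median -0.05), where 51.7% of all tested genes were. Nup98, the nucleoporin gene whose human product forms part of the NHD13 fusion, averaged 134 ± 27.6 CPM over Ifnar1 +/- libraries (SD, n = 6) and 112 ± 12.4 CPM over Ifnar1 -/- libraries (SD, n = 5), with a log2 fold change of -0.27 (SE 0.17). Counts per gene do not show whether reads of the fusion are among them. Nup88, another nucleoporin gene, was at -0.28 (SE 0.23). The TREX-2 complex, which docks transcripts at the pore, had 3 genes below and 3 above 0, among them Pcid2 (-0.17, SE 0.14) and the scaffold gene Mcm3ap (0.52, SE 0.54). Of 13 exon junction and cap-binding genes 9 were below 0 (median -0.07), with Ncbp3 at -0.22 (SE 0.16) and Casc3 at 0.22 (SE 0.18). All 7 genes of the Crm1 route, a separate export pathway, were below 0 (median -0.23), among them Ran (-0.45, SE 0.46) and Elavl1 (-0.23, SE 0.23). The medians of the receptor, TREX-2, exon junction and pore lists each changed sign under at least 1 alternative, and none of these lists was tested as a set. With the B-lineage score as a covariate the Crm1 median was -0.11 and the SR protein median -0.039, and without Ifnar1 -/- library 3 they were -0.51 and -0.49.

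**Figure D5:**
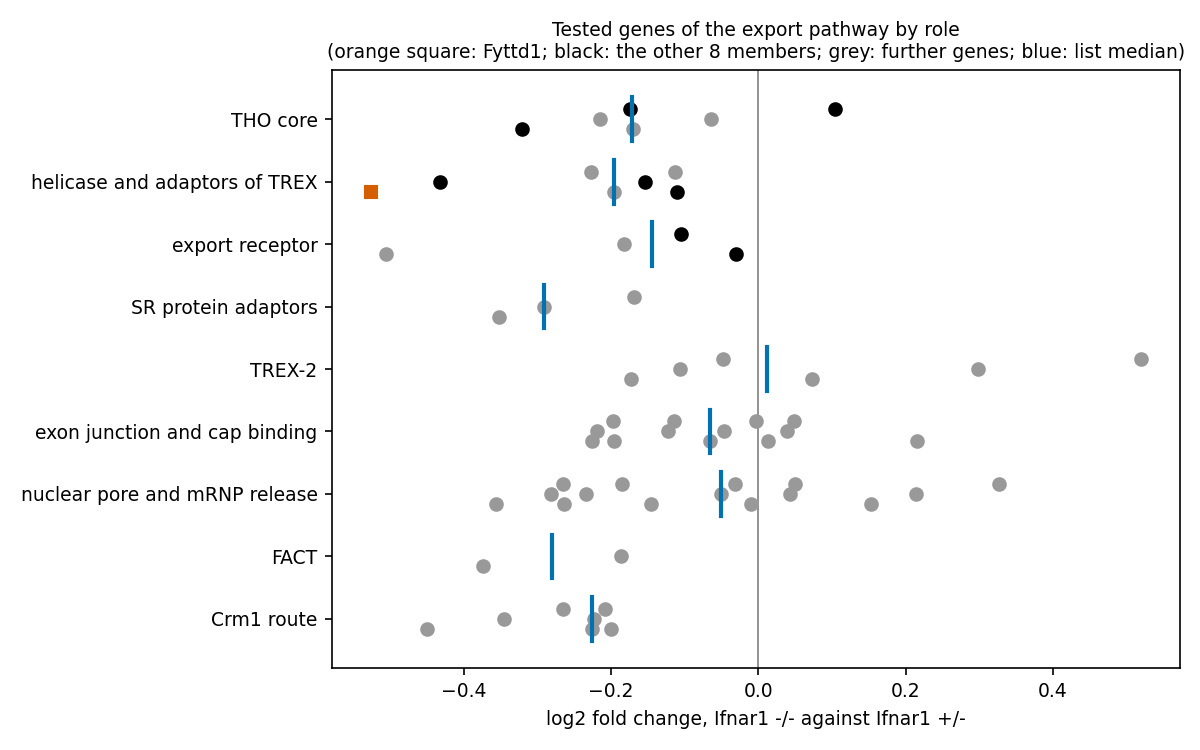
Log2 fold change (horizontal axis, Ifnar1 -/- against Ifnar1 +/-) of the 63 tested genes of the export pathway, 1 row per role. The orange square is Fyttd1, black points are the other 8 members, grey points are further genes, and blue lines are the list medians, which run from -0.29 for the SR protein adaptors to 0.01 for TREX-2.

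Fyttd1 and Ifnar1 lie on the same chromosome, 58.6 Mb apart, so the genes around Fyttd1 were examined. Of the 5 nearest tested genes on each side, 5 had fold changes below and 5 above 0. Among these 10 neighbours 0 passed in edgeR, 0 had an unadjusted p under 0.05, and none had genotypes that did not overlap. The shares over all tested genes were 0%, 1.99%, and 0.0758% lower with 0.0482% higher. They leave little room for any among 10 genes. Rubcn, which starts beside Fyttd1, averaged 16.7 ± 9.04 CPM over Ifnar1 +/- libraries (SD, n = 6) and 13.7 ± 5.10 CPM over Ifnar1 -/- libraries (SD, n = 5), with a log2 fold change of -0.29 (SE 0.40). Lrch3, the nearest gene on the other side, had 10.2 ± 2.32 and 9.05 ± 1.32 CPM (-0.17, SE 0.23).

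The 5 genes whose levels were most like those of Fyttd1 over the 11 libraries were Mis18a, Aen, Hsd17b12, Smim15 and Cops2. Likeness was the root mean square difference of centred log2 CPM, which was 0.14 for Mis18a and 0.16 to 0.18 for the other 4. Mis18a, a centromere assembly factor gene on chromosome 16 at 90719312 to 90727404, had 52.6 to 64.7 CPM in Ifnar1 +/- and 38.03 to 52.9 CPM in Ifnar1 -/- AML. Its genotypes overlapped narrowly. Ifnar1 itself lies from 91485238 to 91507441 on that chromosome, so Mis18a is much nearer to it than Fyttd1 is. Aen, a nuclease gene, had 67.05 to 97.7 and 42.9 to 73.5 CPM. The measure includes the genotype difference on which Fyttd1 was chosen. On it the other export factors ranged from 0.31 for Thoc1 to 0.49 for Ddx39b, and 709 genes were more like Fyttd1 than Thoc1 was.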

How the data were processed

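The authors deposited estimated counts for each gene and library, which need not be whole. Of tools, bcl2fastq and DRAGEN are named, per the submitters' processing notes; for versions, genome build, annotation and strand, nothing is given in the sources used here. Per the labels' protocols, RNA came from a Qiagen micro-scale kit and libraries from a Clontech SMART-type kit. The table held 55774 rows, and dropping 287 identical copies left 55487 genes. Symbols came from a reference table by Ensembl identifier, which matched 55141; gene positions, neighbours and exon lengths came from GENCODE M21 (GRCm38), and promoters from RefSeq (GRCm38.p6), whose build the authors may not have used. For Ddx39a and Nup42 the older symbols of that table were used.

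After rounding, genotypes were compared in edgeR 4.0.16 (R 4.3.3) with filterByExpr, TMM factors, glmQLFit (robust=TRUE) and glmQLFTest on genotype, two-sided, with Benjamini-Hochberg adjustment over all genes and a threshold of 0.05. SE is the absolute log2 fold change over the square root of F, and 95% intervals use the test's own degrees of freedom. CPM are on the totals of the tested genes; log2 CPM used a prior count of 2. Alternatives were DESeq2 1.42.0, limma 3.58.1 (voom with quality weights), other scalings and filters, each library left out, the replicate number as a block and the B-lineage score as a covariate. Leaving out a pair of libraries was added after seeing the data. The tests were checked on simulated data.

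The members, lists, motifs and tests were chosen with earlier results of these data known. After a first search, the interferon and NRF1-type patterns were shortened by 1 base, which added Alyref to the members with an NRF1-type match. Named genes are the members, Ifnar1, marker genes, of each role list any with an unadjusted p under 0.05 or otherwise the 2 non-members with the smallest p, the 5 genes most like Fyttd1 and its nearest neighbour on each side, with gene models that have no proper symbol left out. Counting error covers reads, which are not independent molecules.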

Additional observations from a re-analysis of the deposited data

Results flagged for a closer look

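Of 20 sets of values examined (9 members and Ifnar1 in each genotype), 1 held a library far from the rest. With 20 sets examined 1 may arise by chance. The rate was not measured, and the sets share the same libraries. Fyttd1 had 64.2 CPM in Ifnar1 +/- library 6, and its gap to the next library was 0.714 of the range of that genotype. The other 5 Ifnar1 +/- libraries had 49.7 to 53.8 CPM. Without library 6 the log2 fold change of Fyttd1 was -0.47, against -0.53 with it.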

How the results depend on the processing

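No gene passed in edgeR under any scaling, filter, covariate or left-out library tried, and limma voom called 0, while DESeq2 called 3 genes, of which 1 was a member and the 1 gene of the role lists (Fyttd1, chosen on this contrast, so its call is no evidence). At an unadjusted p under 0.05 edgeR had 289 genes. The sign of Fyttd1 across fits is likewise a description and no evidence, since the gene was chosen on this contrast. Its log2 fold change was below 0 in every fit. It was -0.58 to -0.47 when single libraries were left out and -0.41 without Ifnar1 +/- library 6 and Ifnar1 -/- library 2 together. In CPM without TMM factors Fyttd1, chosen for its separation, was again the 1 member whose genotypes did not overlap. Leaving out any library or that pair separated none of the other 8. With all libraries, the shares over all genes (0.0758% lower and 0.0482% higher) leave little room for any. Small fold changes of other members changed sign. Nxt1 was 0.088 with the B-lineage score as covariate, 0.035 without that pair of libraries, and -0.19 to 0.059 with single libraries left out. Nxf1 was 0.058 without the pair, Ddx39b 0.042 with the covariate, and Thoc5 -0.050 in limma voom and -0.030 to 0.18 with single libraries left out. Other members kept their sign, over ranges of -0.58 to -0.28 (Alyref), -0.43 to -0.16 (Thoc1), -0.30 to -0.064 (Thoc2) and -0.30 to -0.0046 (Sarnp). The list medians in limma voom were -0.51 for the Crm1 route and -0.54 for the SR proteins. The causes were not tested. By Pearson's r in place of the root mean square difference, 3 of the 5 genes most like Fyttd1 were kept. Numbers shared by the titles were not taken as pairs. Same-numbered libraries deviated from their genotype means with correlations of -0.55 to 0.58. These values cannot settle whether the samples are paired, since B-lineage content also varied between libraries. With the number as a block 0 genes passed and Fyttd1 was at -0.48.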

Other observations

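Of the 11 tested genes for which every Ifnar1 -/- library lay below every Ifnar1 +/- library, a few genes are named here after their values were seen. Alkbh5, the gene of an RNA demethylase that in human cells also affects export of transcripts from the nucleus, averaged 88.0 CPM over Ifnar1 +/- and 64.3 CPM over Ifnar1 -/- libraries. Its genotypes missed each other by 0.0013 on the log2 scale, against 0.21 for Fyttd1. Among the 11, Fyttd1 and Tfg (114 and 94.3 CPM) lie on chromosome 16, as does Ifnar1. The share of all tested genes on that chromosome was not counted, so nothing is read from this. These 11 genes were selected by the separation itself, so no test is given for it.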
